A study of Drosophila melanogaster with 3 samples.

Results

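The genes described here encode the translation factors of Drosophila melanogaster, the proteins that work with the ribosome to start, extend and end a polypeptide chain. They were chosen by symbol, as every protein-coding gene of the Ensembl annotation on the 6 main chromosome arms whose symbol starts with eIF, eEF or eRF followed by a digit, with 2 genes (eEF1alpha1 and eEF2) left out of the set. That gave 51 of 13945 protein-coding genes, of which 44 encode initiation factors, 5 elongation factors and 2 release factors. Binding of CG6254, a zinc-finger protein, was measured by ChIP-seq in 3 replicates that the labels call biological. Each was chromatin of whole embryos of mixed sex, 0 to 14 h old, from 1 transgenic line that stably carries CG6254 with GFP fused to its C-terminus, sheared by sonication to 200 to 800 bp and precipitated with an antibody against GFP. All samples carry the tag, no untagged sample was analysed here, and whole embryos do not show in which cells a site was occupied. The promoter of a gene was taken as 500 bp on each side of any of its transcription start sites (TSSs), and a gene whose promoter held the summit of a peak is called bound. The peaks were those of the list that the authors filtered by irreproducible discovery rate (IDR), and they were identical to the 4426 strongest of the 30000 peaks called on the pooled replicates. Ranks count from the strongest peak of a list, and the signal of a peak is the authors' own value, given without error or unit, and it orders peaks within a list only. Read depth is not given in the sources used here.

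Initiation factors bring the initiator tRNA, the mRNA and the ribosomal subunits together at the start codon. Elongation factors deliver aminoacyl-tRNAs and move the ribosome along the mRNA, and release factors recognise the stop codon and free the finished chain. Most are needed for growth in general, while some paralogs have restricted uses. Housekeeping promoters in flies often carry the sequence recognised by the factor DREF.

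The sequences around 5 of the summits are shown because they cover all 3 kinds of factor and hold each of the motifs that was found within 50 bp of a summit with sequence that could be shown. They were read from the RefSeq copy of the dm6 assembly on its + strand, with untranslated regions left out, and capitals mark a motif. The first 2 carry TATCGATA, the element that DREF binds, on either side of the summit. The third carries AGATGGCG, a match to AGNTGGCG, letters found in the core of the sequence recognised by the insulator protein CTCF, and the fourth carries TATAAA on both strands. The last, at the release factor gene eRF1, held none of the motifs within 50 bp. The stretches are eEF1gamma at chr3R:29220109-29220171, eIF1 at chr3L:3222961-3223059, eIF2beta at chr3L:12526958-12527058, eIF4EHP at chr3R:24109133-24109233 and eRF1 at chr3L:20348196-20348296.
eEF1gamma: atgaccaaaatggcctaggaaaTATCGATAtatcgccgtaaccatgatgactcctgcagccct
eIF1: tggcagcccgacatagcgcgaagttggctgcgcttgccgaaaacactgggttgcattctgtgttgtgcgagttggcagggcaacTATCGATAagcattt
eIF2beta: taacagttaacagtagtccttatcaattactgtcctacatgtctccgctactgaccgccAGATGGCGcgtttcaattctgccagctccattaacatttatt
eIF4EHP: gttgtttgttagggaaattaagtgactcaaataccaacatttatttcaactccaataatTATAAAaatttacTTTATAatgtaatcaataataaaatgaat
eRF1: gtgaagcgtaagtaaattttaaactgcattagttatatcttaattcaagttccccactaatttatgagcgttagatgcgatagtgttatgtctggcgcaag

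Motifs were searched by their letters on both strands in the 101 bases centred on the summit of each bound member's strongest peak. TATCGATA was found at 2 of 11 members (18.2%), against 2.08% of the 1727 IDR peaks with a summit in a promoter. In eEF1gamma it began 28 bp before the summit and in eIF1 36 bp after it, in genome coordinates. The eIF1 summit lay 332 bp from the TSS of eIF1 but 49 bp from that of RpL28, so this match cannot be assigned to eIF1 alone. Enrichment of TATCGATA was not tested, as it rests on 2 of 11 peaks and the motifs were chosen with earlier results known. Within 100 bp of the summit a further match appeared at eRF1, which gave 3 of 11 (27.3%) against 5.50%. TATAAA, the letters of a TATA box, was also found within 50 bp at 2 of 11 members (18.2%), eIF4EHP and eIF6. There the share among all promoter peaks was similar, at 20.8%. Within 100 bp TATAAA also gained a match at eRF1, for 3 of 11 (27.3%) against 35.8%. GGTCACAC, CAGCNCTA and CAGCTG were found within 50 bp at 0 members, against 1.56%, 1.04% and 4.11% of the promoter peaks. AGNTGGCG was added after the windows had been read, so its single match at eIF2beta, beside 0.869% of all promoter peaks, is a description of that site only. No match of one motif overlapped a match of another, and no match says nothing about whether a factor was present. The GC content of the members' windows ran from 20.8% at eIF4EHP to 52.5% at eIF1 with a median of 39.6%, beside a median of 33.7% over all promoter peaks.

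CG6254-GFP was found at the promoters of 11 of the 51 translation factor genes, or 21.6% (exact 95% interval 11.3% to 35.3%), and 14.8% of all protein-coding genes were bound by the same rule. The bound genes were 3 of 5 elongation factors (60%, interval 14.7% to 94.7%), 7 of 44 initiation factors (15.9%, interval 6.64% to 30.1%) and 1 of 2 release factors (50%, interval 1.26% to 98.7%). The share for initiation factors was close to that of all genes. The intervals of all 3 classes overlap, but they treat genes as independent draws and are no test between classes. The peaks reached rank 63 of 4426 at eEF1beta and otherwise lay between rank 226 and rank 3939. Their median rank was 1072 and their median signal 361, whereas the 2064 bound genes as a whole had a median rank of 1953 and a median signal of 247. Among the 4426 strongest peaks of each replicate alone, 12 members (23.5%) had a promoter summit in replicate 1, 11 (21.6%) in replicate 2 and 9 (17.6%) in replicate 3. The corresponding shares of all genes were 16.4%, 16.0% and 12.6%, each below that of the members. Since the IDR list was made from these same replicates, and 1 control alignment served all of them, the replicates are no independent check of that list.

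**Figure D1:**
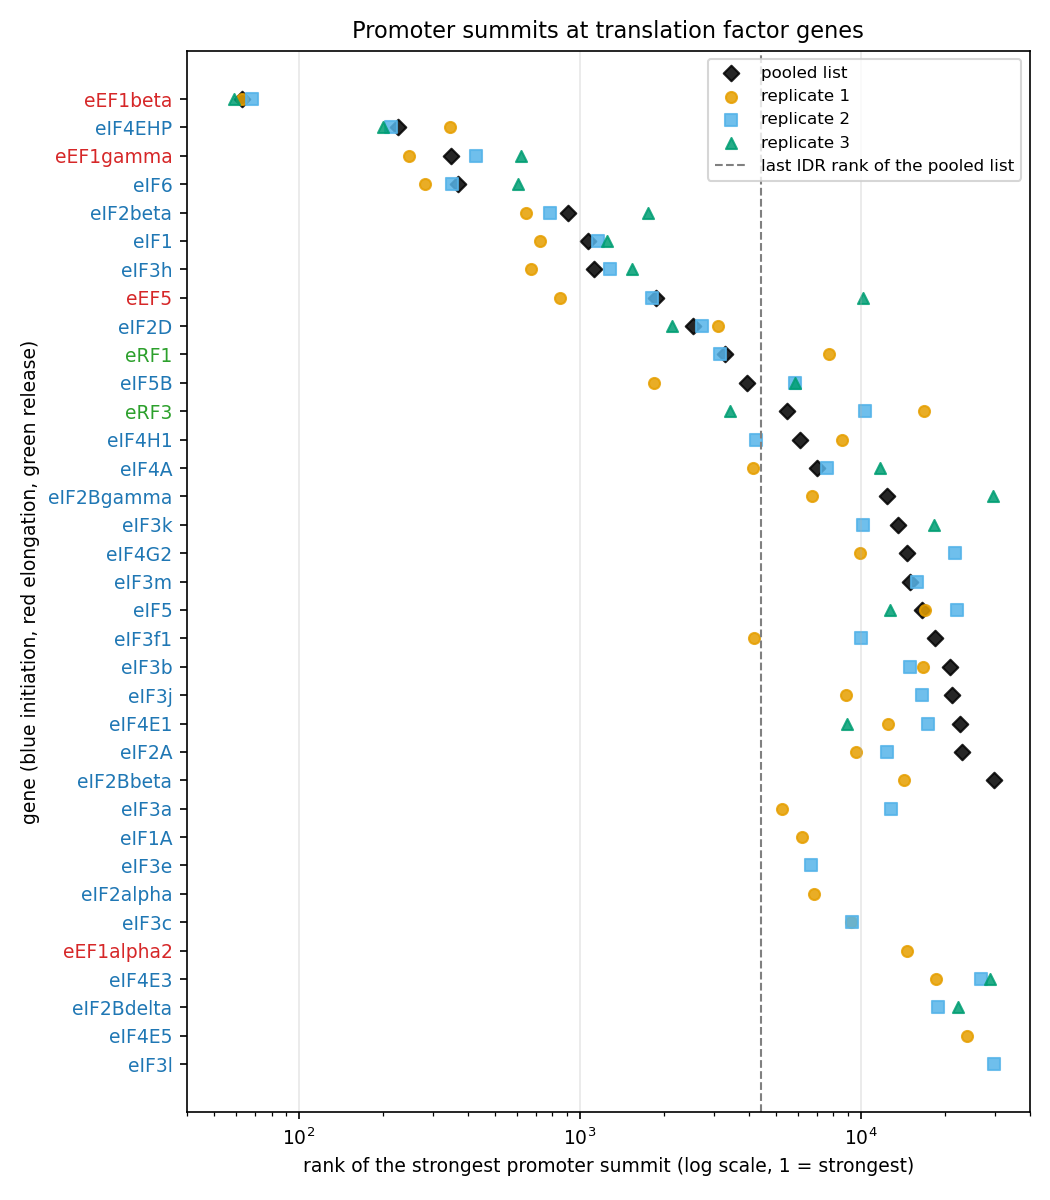
Rank of the strongest promoter summit (log scale, 1 is the strongest peak) of each translation factor gene that had one in the pooled list or in a replicate list, 1 row per gene, with the pooled list as diamonds and the replicates as circles, squares and triangles. The 11 genes whose diamond lies left of the dashed line, from eEF1beta (rank 63) to eIF5B (rank 3939), are the bound genes. Replicate ranks ran from 59 to 68 at eEF1beta and from 851 to 10161 at eEF5. The spread did not follow strength throughout, with ranks of 2134 to 3096 at the weaker eIF2D.

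The strongest elongation factor peak lay at eEF1beta (FBgn0028737), which encodes a nucleotide exchange subunit that recharges eEF1A with GTP. This peak at chr2R:16867620-16868343 had a signal of 2239 and its summit 84 bp upstream of the TSS, in intergenic DNA. It ranked 63 in replicate 1, 68 in replicate 2 and 59 in replicate 3, and its summits lay within 12 bp of each other. In every replicate the next member ranked 200 or weaker. The summit also lay 424 bp from a TSS of Psi, a splicing factor gene that starts on the opposite strand 508 bp away. The gene of a partner subunit, eEF1gamma (FBgn0029176), had a peak at chr3R:29220019-29220256 with a signal of 638 and a summit 13 bp upstream of the TSS. Its ranks were 247, 428 and 616 in replicates 1, 2 and 3, with summits within 8 bp of each other and no other gene in the window. The third subunit gene of this exchange complex, eEF1delta, had no promoter summit in any list, and its nearest IDR summit was 5462 bp away. Thus the genes of 2 of its 3 subunits were bound and the other was not.

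eEF5 (FBgn0285952), the fly eIF5A, carries hypusine and helps ribosomes through stretches that stall them. Its peak at chr2R:24057591-24058006 had a signal of 253 and a summit 1 bp downstream of the TSS, in the 5′ UTR. The peak ranked 851 in replicate 1 and 1814 in replicate 2 but 10161 in replicate 3. The replicate summits were spread over 102 bp, so eEF5 was less even between replicates than eEF1beta and eEF1gamma. eEF1alpha2, which encodes a form of the GTPase that brings aminoacyl-tRNA to the ribosome, had a summit 37 bp downstream of its TSS in replicate 1 only, at rank 14576, and none in the pooled list. Among the strongest peaks of replicates 1, 2 and 3 were 3, 3 and 2 of the 5 elongation factor genes (60%, 60% and 40%). Initiation factors were at 20.5%, 15.9% and 13.6% there, and all genes at 16.4%, 16.0% and 12.6%. The elongation factor shares were higher in every replicate but rest on the same few genes. eEF1beta and eEF1gamma were counted each time, and eEF5 in all but replicate 3.

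Of the initiation factor genes, eIF4EHP (FBgn0053100) had the strongest peak. Its product binds the mRNA cap without recruiting eIF4G and represses maternal mRNAs in the early fly embryo. The peak at chr3R:24109025-24109366 had a signal of 819 and a summit 223 bp upstream of the TSS, and it ranked 346, 213 and 200 in replicates 1, 2 and 3. CG18428 starts on the opposite strand 376 bp away, and its TSS was nearer to the summit, at 153 bp. eIF6 (FBgn0034915), which keeps the large ribosomal subunit from joining too early, had a peak at chr2R:23850301-23850513 with a signal of 616 and a summit 111 bp upstream of the TSS. It ranked 281, 351 and 605, and its summit fell in an exon of the antisense gene asRNA:CR45928. The TSS of that gene was nearer to the summit, at 82 bp. Both peaks had replicate summits within 14 bp of each other and stood among the strongest in all 3 replicates.

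eIF2beta (FBgn0004926), a subunit of the factor that carries the initiator tRNA, had a peak at chr3L:12526936-12527080 with a signal of 395, a summit 277 bp upstream of the TSS and ranks of 642, 784 and 1747. eIF1 (FBgn0035423), which guards the choice of start codon during scanning, had one at chr3L:3222801-3223216 with a signal of 361, a summit 332 bp upstream and ranks of 720, 1166 and 1252. The eIF1 summit was only 49 bp from the TSS of RpL28, a ribosomal protein gene that starts on the opposite strand, so it cannot be assigned to one of the pair. Neither gene of the remaining subunits of eIF2, eIF2alpha and eIF2gamma, was bound. eIF2D (FBgn0041588), which can place tRNA on the small subunit without eIF2, had a weaker peak at chr3R:29151739-29152154 with a signal of 211, a summit 153 bp upstream and ranks of 3096, 2734 and 2134. It was alone in its window, and its replicate summits were spread over 83 bp.

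The eIF3 complex, which holds the small subunit and the other factors together, has the most genes of the set, and 1 of these 16 was bound (6.25%, interval 0.158% to 30.2%, which includes the 14.8% of all genes). That gene, eIF3h (FBgn0022023), had 2 IDR summits. The stronger lay 302 bp downstream of the TSS in an intron, at chr2L:5052270-5052685, with a signal of 352 and ranks of 671, 1279 and 1539. The weaker, with a signal of 205, lay 97 bp downstream of a TSS. The promoter of senju, which starts 63 bp away on the opposite strand, shared the stronger summit. eIF5B (FBgn0026259), the GTPase that joins the ribosomal subunits, had the weakest bound peak, at chr3L:3460595-3461010, with a signal of 159 and a summit 174 bp downstream of the TSS in its 5′ UTR. It ranked 1844 in replicate 1 but 5823 and 5830 in replicates 2 and 3, outside the strongest peaks of both. None of the 5 genes of eIF2B, the exchange factor of eIF2, was bound, nor were eIF4A, the 2 eIF4G genes, or the 3 genes of eIF4B and eIF4H, which together handle the capped end of the mRNA. In the family of cap-binding eIF4E proteins, 1 of 7 genes was bound, and that was eIF4EHP. The intervals of these small groups include the 14.8% of all genes as well, and no difference from all genes was tested.

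Of the release factors, eRF1 (FBgn0036974), the protein that reads stop codons, was bound at chr3L:20348038-20348453 with a signal of 179 and a summit 109 bp upstream of the TSS. Its strongest promoter summit ranked 7718 in replicate 1, where it lay 201 bp downstream of the TSS, and 3160 in replicate 2, and replicate 3 had none. The summit was shared with Rbbp5, which starts 413 bp away on the opposite strand and encodes a subunit of histone methyltransferase complexes. eRF3, the GTPase that works with eRF1, was not bound, but the pooled list held a summit 40 bp upstream of its TSS at rank 5487 with a signal of 130. It ranked 16806, 10349 and 3440 in replicates 1, 2 and 3. The 2 release factor genes were thus each among the strongest peaks of 1 replicate, and of a different one.

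**Figure D2:**
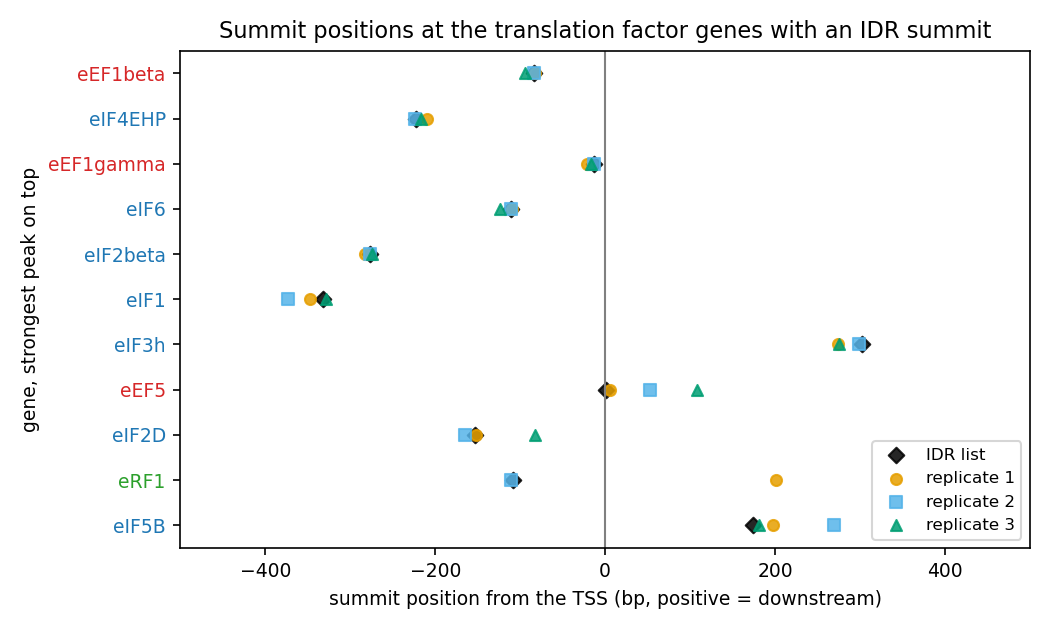
Position of the summit from the TSS (bp, positive values downstream) for the 11 bound translation factor genes, with the IDR summit as a diamond and the strongest promoter summit of each replicate as a circle, square or triangle. The replicate summits lay within 14 bp of each other at the 5 strongest peaks, and eRF1 had summits on both sides of its TSS and none in replicate 3.

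The summits of 8 of the 11 bound members (72.7%) lay upstream of the TSS, as did those of 83.2% of all bound genes. The median distance was 153 bp for members and 154.5 bp for all bound genes. It was 13 bp for the 3 elongation factors and 223 bp for the 7 initiation factors. Of the 11 peaks, 6 (54.5%) also lay within 500 bp of a TSS of another gene, against 52.8% of all bound genes. Another gene started on the opposite strand within 1000 bp upstream at 8 bound members (72.7%) and at 19 of the 40 unbound ones (47.5%). The same arrangement held for 62.5% of all bound genes and for 35.6% of all genes that were not bound. In each of the 3 replicates, 1 of the 4426 strongest peaks had its summit no more than 200 bp from that of the IDR peak at 8 of 51 members (15.7%), beside 8.72% of all genes. These were all bound members but eEF5, eIF5B and eRF1.

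The number of bound members depended on how near a summit had to be. With a window of 200 bp 8 members (15.7%) were bound, beside 9.91% of all genes, and with one of 1000 bp 13 (25.5%) beside 17.8%. When each summit was counted only for the gene of its nearest TSS, 8 members (15.7%) were bound beside 11.2% of all genes. By the distance of a gene's nearest IDR summit, for which the weaker summit of eIF3h counts, the bound members closest to the edge of the 500 bp window were eIF2beta at 277 bp and eIF1 at 332 bp upstream. Just outside it lay 2 genes of eIF2B, eIF2Bbeta with a summit 692 bp upstream and eIF2Bdelta with one 736 bp upstream. The first of these summits belonged to a peak at chrX:2703711-2704056 that was stronger than that of any bound member, with rank 59 and a signal of 2386, and ranked 66, 64 and 49 in replicates 1, 2 and 3. It lay 27 bp upstream of Ugalt, a nucleotide sugar transporter gene. The second belonged to a peak of rank 4179 in the 3′ UTR of roh that was not matched among the strongest peaks of any replicate.

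**Figure D3:**
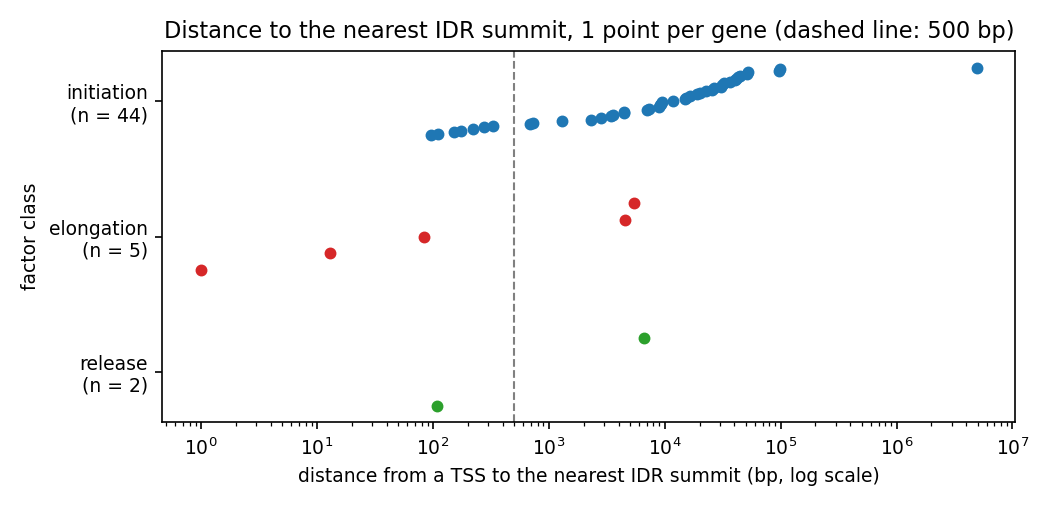
Distance from a TSS to the nearest IDR summit (bp, log scale) for each of the 51 translation factor genes, by class, with the 500 bp window as a dashed line. The 3 bound elongation factors lie at 1, 13 and 84 bp, and the unbound eEF1alpha2 and eEF1delta at 4548 and 5462 bp. The bound initiation factors run from 97 to 332 bp, and all initiation factors up to 4912868 bp.

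Over all members the median distance to the nearest IDR summit was 9001 bp, close to the 9259 bp of all protein-coding genes. It was 10678.5 bp for the initiation factors and 84 bp for the elongation factors. Peaks in gene bodies, more than 500 bp from any TSS, were found in 2 members (3.92%) beside 978 of all genes (7.01%). Both of them are long genes with bound promoters. eIF4EHP, which spans 45884 bp, held 2 such peaks in its introns, at ranks 1412 and 2653 with signals of 306 and 205. eIF5B, which spans 32320 bp, held 3, at ranks 1709, 1935 and 2804, and each of these was stronger than its promoter peak.

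In the full pooled list, which mixes true peaks with background, 25 members (49.0%) had a promoter summit beside 43.0% of all genes. They comprised 3 of the 5 elongation factors, both release factors and 20 of the 44 initiation factors. In the full lists of replicates 1, 2 and 3 the members were 30 (58.8%), 29 (56.9%) and 18 (35.3%), beside 48.3%, 48.4% and 37.4% of all genes. Members were thus above all genes in replicates 1 and 2 and below them in replicate 3. After eRF3, the strongest of the 14 members with a summit in the pooled list but none in the IDR list were eIF4H1 at rank 6078, a helper of the helicase, and eIF4A at rank 7007, the helicase that unwinds the mRNA leader. They were followed by eIF2Bgamma at rank 12367 and eIF3k at rank 13536, and these lacked a promoter summit in replicate 2 and replicate 1, respectively. eIF4H1 had a rank of 4240 in replicate 2, and eIF4A one of 4125 in replicate 1, so each was among the strongest peaks of 1 replicate. Of these 14 summits, 3 (21.4%) were within the 10000 strongest, against 40.6% of the 3927 genes of that kind among all genes.

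All 3 full replicate lists held a promoter summit for 15 members (29.4%, against 26.7% of all genes). These were the bound genes other than eRF1, together with eIF4A, eIF4E1, eIF4E3, eIF5 and eRF3. Another 12 members (23.5%, against 17.7% of all genes) were reached in 2 lists. They were eIF2A, eIF2Bdelta, eIF2Bgamma, eIF3a, eIF3b, eIF3c, eIF3f1, eIF3j, eIF3k, eIF4G2, eIF4H1 and eRF1. A single list held a promoter summit for 8 members (15.7%, against 18.5% of all genes). Those were eEF1alpha2, eIF1A, eIF2Bbeta, eIF2alpha, eIF3e, eIF3l, eIF3m and eIF4E5. The 16 members (31.4%, against 37.1% of all genes) with none were eEF1delta, eIF2Balpha, eIF2Bepsilon, eIF2gamma, eIF3d1, eIF3d2, eIF3f2, eIF3g1, eIF3g2, eIF3i, eIF4B, eIF4E4, eIF4E6, eIF4E7, eIF4G1 and eIF4H2. The last group held 6 of the 16 eIF3 genes and 3 of the 7 eIF4E family genes.

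Other genes of the translation machinery were set beside the factors. In the IDR list 56 of 88 genes of cytosolic ribosomal proteins (63.6%), 13 of 73 of mitochondrial ribosomal proteins (17.8%) and 6 of 33 of aminoacyl-tRNA synthetases (18.2%) were bound. Among the strongest peaks of single replicates the translation factors were at 20.9% ± 3.00 (SD, n = 3) and the initiation factors at 16.7% ± 3.47. The mitochondrial ribosomal proteins were at 18.3% ± 2.85, the synthetases at 21.2% ± 3.03 and the cytosolic ribosomal proteins at 61.0% ± 14.8. The factors thus lay within 1 SD of the synthetases and the mitochondrial ribosomal proteins. That SD is the spread between replicate peak lists and does not measure the uncertainty of a difference between gene classes. The cytosolic ribosomal proteins were higher than the factors as a whole in every replicate, at 75.0%, 62.5% and 45.5%, with no overlap. No test was made between these gene classes, since genes are not replicates of a condition.

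**Figure D4:**
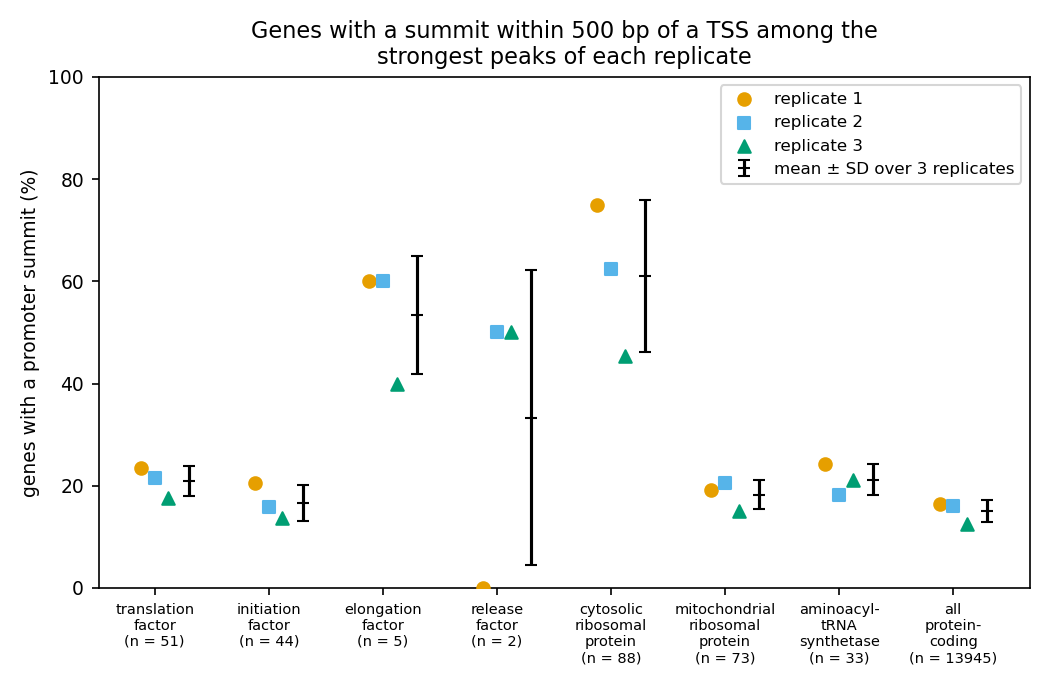
Share of genes (%) with a summit within 500 bp of a TSS among the 4426 strongest peaks of each replicate, by gene class, with 1 point per replicate and bars for the mean ± SD over 3 replicates. The initiation factors (16.7% ± 3.47) lie near all protein-coding genes (15.0% ± 2.11), and the elongation factors and cytosolic ribosomal proteins lie above both in every replicate. The elongation class holds only 5 genes, without eEF1alpha1 and eEF2, against 88 for the cytosolic ribosomal proteins. Its points are 3, 3 and 2 genes in replicates 1, 2 and 3.

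From a list of 28 regulators and partners in translation, 7 genes were bound (25%, interval 10.7% to 44.9%), beside 14.8% of all genes. Not all of the list control the translation factors, as it also holds genes of ribosome recycling and quality control. They included 3 of 9 regulators of initiation, namely Thor, Gcn2 and Lk6. Thor, the 4E-BP that sequesters eIF4E, had a summit 29 bp downstream of its TSS with a signal of 291 and ranks of 2080, 1915 and 1329. Gcn2, a kinase of eIF2alpha, had one 225 bp upstream with a signal of 289 and ranks of 2094, 1764 and 1473. Lk6, a kinase of eIF4E, had one of the weakest IDR peaks, with rank 4424, 297 bp upstream. Of 8 genes of ribosome recycling and quality control 3 were bound. Ltn1, a ubiquitin ligase of stalled ribosomes, had the strongest peak of any gene named here, at rank 4 with a signal of 8928 and ranks of 4, 4 and 6. Rack1, a protein of the small subunit, had rank 693, and pelo, which rescues stalled ribosomes, rank 2508. Dhps, the enzyme that begins the synthesis of hypusine on eEF5, was bound at rank 3561, 204 bp upstream of its TSS. At Ltn1, Gcn2 and Dhps the TSS of another gene was nearer to the summit. None of the 8 partners at the mRNA cap and tail was bound in the IDR list with the 500 bp window. One of them, larp, had promoter summits at ranks 2765, 4257 and 4104 in replicates 1, 2 and 3, among the strongest peaks of each, and larp, pAbp and Paip2 were bound with the 1000 bp window.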

How the data were processed

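The authors deposited, for dm6, an IDR peak list and relaxed lists for each replicate and for the pool. Per the readme texts deposited with them, each replicate was called against the same control alignment. The deposited signal of a peak is a score given by the authors' caller, used here only for ranks. For the aligner, caller, IDR threshold and depth, no value is given in the sources used here. Summits are the deposited offsets, with positions counted from 1. The lists on dm3 were not used, for want of an annotation.

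TSSs came from Ensembl release 115 on 6 arms. A replicate peak matched where its summit was at most 200 bp away and it was among that list's 4426 strongest. Counts are set beside those of all protein-coding genes, with no test. Exact 95% (Clopper-Pearson) intervals cover counting error only, treat genes as independent draws and were not used as tests. The steps were tested on simulated data and run with Python 3.11.15, pandas 2.3.3, numpy 2.4.6, scipy 1.17.1 and matplotlib 3.10.9.

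The members, lists, motifs and rules were chosen with earlier results of these data known. Named genes were the bound members, all elongation and release factors and the 5 strongest members in the pooled but not the IDR list. The 2 members on each side of the window edge and the bound regulators and partners were named too. The other members were grouped by the lists they reach. Of 29 listed regulators and partners, 1, Tor, matched more than 1 gene and was left out.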

Additional observations from a re-analysis of the deposited data

How the results depend on the processing

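Bound members numbered 8 to 13 over the windows of 200 and 1000 bp, the 2213 strongest IDR peaks, protein-coding TSSs, TSSs inside the interval, the nearest TSS only, single replicates and leaving out a replicate. The shares of all genes ran from 8.28% to 17.8% over these choices. With peaks shared with another gene left out, a choice made after seeing the data, bound members fell to 5, beside 6.99% of all genes. Initiation factors numbered 4 of 44 (9.09%) with the 200 bp window, with TSSs inside the interval and with the nearest TSS only. The shares of all genes there were 9.91%, 9.04% and 11.2%. Release factors numbered 0 of 2 with the 2213 strongest peaks and in replicate 1 alone, beside 8.28% and 16.4% of all genes. They also numbered 0 without replicate 1, 2 or 3, beside 9.66%, 9.42% and 10.9%. Regulators and partners numbered 4 of 28 (14.3%) with the 200 bp window, the 2213 strongest peaks and the nearest TSS only. For these the shares of all genes were 9.91%, 8.28% and 11.2%. The 10000 strongest pooled peaks left 14 members, beside 26.2% of all genes. The elongation factor count stayed within 1.5 times its main value of 3 of 5 in all 12 alternatives. It fell to 2, at that limit, in replicate 3 alone and without replicate 1 or 2. The shares of all genes in those settings were 12.6%, 9.66% and 9.42%. Between 7 and 10 members were matched in all replicates over the other match rules. The mean share over replicates was 19.6% to 22.5% when a replicate was left out, which is also a choice made after seeing the data. For the counts of bound genes, leaving out a replicate kept only IDR peaks matched among the strongest peaks of each remaining replicate. The main count required no such match, so the lower counts cannot be read as an effect of the replicate left out. That replicate also still shaped the calling of the IDR peaks. No paired analysis was possible because there is 1 group. Depth is unknown, so no limit of detection can be given.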
